A study of Mus musculus with 16 samples.

Results

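The 10 genes described here make up the core of the NF-kB system in T cells. They are the 5 DNA-binding subunits Nfkb1, Nfkb2, Rela, Relb and Rel, 3 proteins of the inhibitor of kappa B family (Nfkbia, Nfkbie and Bcl3), and 2 genes that act at receptor complexes (Tnfaip3 and Traf1). They were chosen by name from 55536 annotated genes, and all 10 passed the filter on low counts, which kept 16650 genes.

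NF-kB factors are pairs of subunits that are held in the cytoplasm by inhibitors of the IκB family until the antigen receptor or a receptor of the TNF family signals. In the classical arm, a kinase complex marks IκBα (Nfkbia) for destruction, and dimers of RelA or c-Rel with p50 (from Nfkb1) enter the nucleus. In the alternative arm, which TNF family receptors open, p100 (from Nfkb2) is cut to p52 and pairs with RelB. Several products of NF-kB target genes feed back on the pathway, among them IκBα, A20 (Tnfaip3) and TRAF1. OX40 and 4-1BB, the receptors stimulated in this study, are TNF family members that signal to NF-kB in T cells.

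The libraries came from mouse OT-I CD8+ T cells (strain OT-1 Tg C57BL/6J), whose transgenic receptor recognises an ovalbumin peptide, electroporated with Cas9 and 1 of 2 guide RNAs. The scrambled guide gave the Control gRNA group, and a guide to Tardbp, the gene of the RNA-binding protein TDP-43, gave the Tardbp gRNA group. Both groups were transferred into C57BL/6J mice and stimulated in vivo with antigen together with the agonist antibodies anti-OX40 and anti-41BB. Cells were taken from spleen and lymph nodes on day 4 per the labels, slightly earlier per the methods, and sorted, with 8 libraries in each group. The paper's results also name a stimulation after purification, and the paper leaves unclear whether the sequenced cells received it. The donors had no B cells and no T cells other than the transgenic ones, and the recipients kept their own immune cells. Mice were adults of both sexes, and the edited cells were an uncloned pool that could include unedited cells.

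Tardbp itself was lower in every Tardbp gRNA library. Its level was 192.4 ± 13.3 CPM (the share of a library's counts on the usual CPM scale, adjusted by TMM, mean ± SD, n = 8) in Control gRNA and 134.9 ± 11.3 CPM in Tardbp gRNA, or 70.1% of the control mean (edgeR quasi-likelihood test, adjusted p = 8.1e-07). Depth lay between 36831814 and 46373620 read pairs for Control gRNA libraries, and between 29714709 and 48164083 for those of Tardbp gRNA. The estimated counts came to 73649630 to 93893357 for Control gRNA libraries, or 1.97 to 2.02 per read pair. For Tardbp gRNA libraries they came to 56016533 to 94801105, or 1.89 to 1.98 per read pair. The lowest level of any member in any library was 7.75 CPM (632 estimated counts, Bcl3 in Control library 3). The deposited RNA concentration, given without a unit, spanned 34.9–197.1 for Control gRNA libraries and 10.1–24.0 for Tardbp gRNA libraries, so the guide and the amount of RNA cannot be told apart by group. The summed CD8 T cell markers (Cd8a, Cd8b1, Cd3d, Cd3e, Cd3g and Trac) came to 3408–4271 CPM in the control libraries and to 5211–6697 CPM in the Tardbp gRNA libraries, and all 6 were called higher (exact permutation test, two-sided, p = 0.00016, adjusted p = 0.0011 over 7 marker lists). The part of this shift in the results on the NF-kB genes was not tested.

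Of the 10 genes, 6 rose in Tardbp gRNA (Nfkbia, Relb, Traf1, Tnfaip3, Nfkbie and Rel) and 0 fell at an adjusted p under 0.05 by edgeR. Over all genes tested, 23.5% were called higher and 23.3% lower. With DESeq2 or limma voom 7 members were higher and 0 lower, and at an unadjusted p under 0.05 by edgeR 7 were higher and 0 lower. For 3 members no Tardbp gRNA library lay within the control range (Nfkbia, Relb and Traf1), against 16.9% of all genes tested. The median log2 fold change was 0.27 over the members and 0.05 over all genes tested. In bulk libraries a change in the number of expressing cells and a change in RNA per cell cannot be told apart. The p-values set the difference between groups against the spread between these libraries. The study describes cells purified from individual recipients, but the labels do not tie a library to a mouse.

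**Figure D1:**
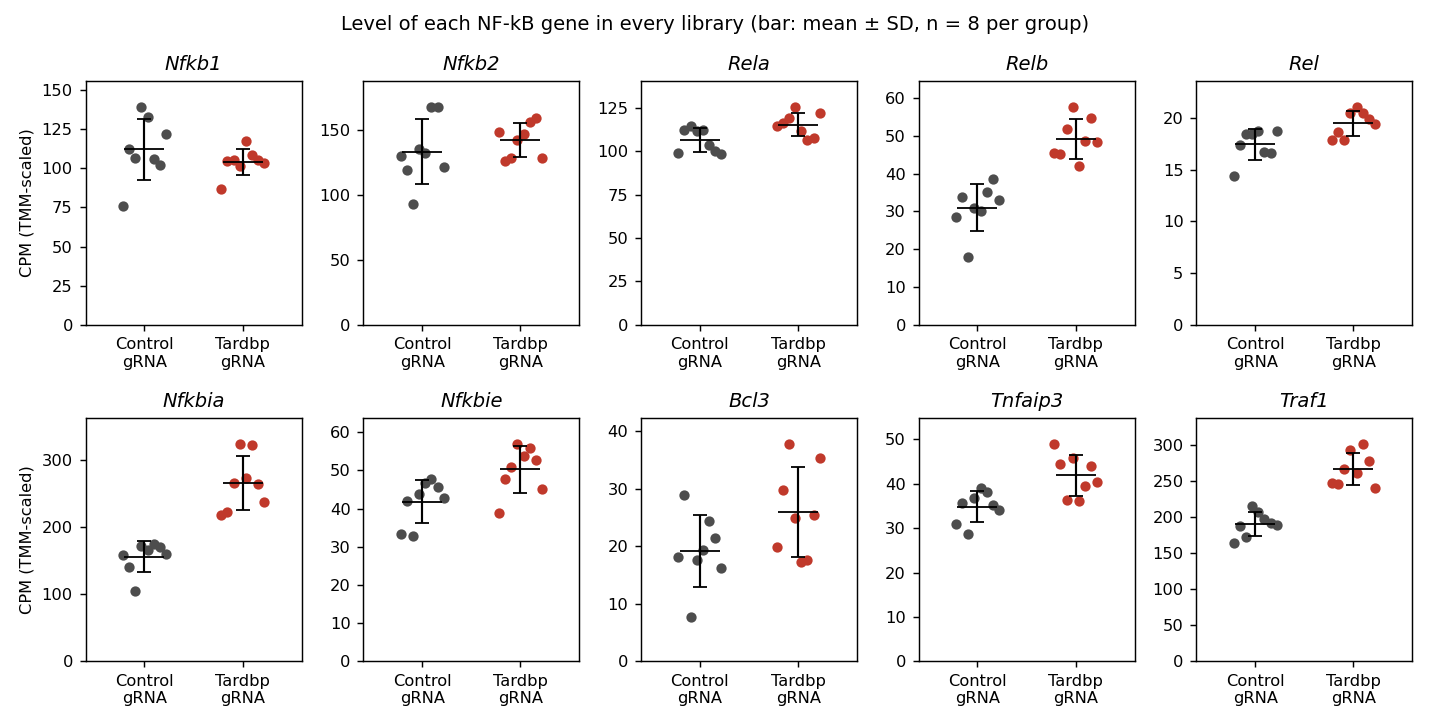
TMM-scaled CPM of the 10 NF-kB genes (vertical axis, starting at 0) in each of the 8 Control gRNA and 8 Tardbp gRNA libraries, with 1 point per library and black bars for the mean ± SD. The 8 Tardbp gRNA points of Nfkbia, Relb and Traf1 all lie above the 8 Control gRNA points, while the points of Nfkb1 and Nfkb2 overlap.

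DNA sites for NF-kB, called kappa B sites, occur close to the start of many of these genes, and they are shown because several members are themselves known NF-kB targets. Promoters of 8 of the 10 members were matched in the RefSeq promoter table (GRCm38.p6), each reaching from 250 bases before to 50 after a start site. Entries for Nfkb1 and Relb were not matched. The 10-letter kappa B consensus was found on either strand in 6 of the 8 genes (Nfkb2, Rel, Nfkbia, Nfkbie, Bcl3 and Tnfaip3), against 9.55% of all 27025 genes in the table, and in 8 of their 11 promoters, against 8.46% of all 32851 promoters. The 9-letter form GGGANTTCC, whose matches often overlap those of the 10-letter consensus, was found in 4 of them (Bcl3, Nfkb2, Rel and Tnfaip3), against 1.92% of all genes and 1.68% of all promoters. The narrower 10-letter form GGGANNTTCC, contained in the consensus, was found in Nfkb2 and Nfkbia, against 1.63% of all genes and 1.47% of all promoters. The windows of Rela and Traf1 held no match of these letters. The lines give matches upstream of the RefSeq start site, 5′ to 3′ on the strand of the gene, with the matched letters (overlapping matches joined) in capitals. For Nfkbia, the member with the highest rise, a longer stretch is given.
Nfkbia, minus strand, chr12:55492648-55492767: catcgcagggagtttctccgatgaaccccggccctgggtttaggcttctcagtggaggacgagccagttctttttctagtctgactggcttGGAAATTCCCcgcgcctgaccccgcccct
Nfkbie, plus strand, chr17:45555579-45555618: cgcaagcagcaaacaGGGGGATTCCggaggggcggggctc
Rel, minus strand, chr11:23771036-23771076: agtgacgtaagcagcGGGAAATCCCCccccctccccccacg
Tnfaip3, far match, minus strand, chr10:19015517-19015544: actcacgcgGGGACACCCCggggcggga
Tnfaip3, near match, minus strand, chr10:19015411-19015431: atttccatcGGAAATCCCCct
Nfkb2, plus strand, chr19:46304689-46304717: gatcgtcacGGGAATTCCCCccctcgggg

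The match in Nfkbia began 29 bases before the start site, the one in Nfkbie 106 bases, the one in Rel 92 bases, and those in Tnfaip3 125 and 12 bases before it. Nfkb2 had 5 matches at 4 positions over its 3 annotated starts, and that shown lay 39 bases before the first of them. The match in Bcl3 lay in the 50 bases after its start. Matches were thus present in 4 of the 5 members that rose and had a promoter in the table (Nfkbia, Nfkbie, Rel and Tnfaip3) and in Nfkb2 and Bcl3, which were not called. Traf1, which rose, had none in its window. In GENCODE M21, the match shown for Nfkb2 lies in the first exon of Nfkb2-206, and both matches in Tnfaip3 lie in the first intron of Tnfaip3-203, since these transcripts begin further upstream. A match describes the letters and does not show that a factor was bound.

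Among the subunits, Relb changed most. Relb pairs with p52 in the alternative arm, and its gene (chr7, GENCODE M21 on GRCm38) had a lowest, median and highest level of 18.0, 31.8 and 38.7 CPM in Control gRNA and 42.01, 48.4 and 57.6 CPM in Tardbp gRNA. All 8 Tardbp gRNA libraries were above all 8 of Control gRNA. The mean rose from 31.0 ± 6.12 to 49.2 ± 5.24 CPM (SD, n = 8), a log2 fold change of 0.67 (SE 0.11, 95% interval 0.43 to 0.91, edgeR adjusted p = 0.0001). Control library 3 had the lowest value, and without it the log2 fold change was 0.58.

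Rel encodes c-Rel, the subunit of the classical arm tied to the antigen receptor in lymphocytes. It had 14.4, 17.9 and 18.7 CPM (lowest, median and highest) in Control gRNA and 17.9, 19.6 and 21.04 CPM in Tardbp gRNA. The groups overlapped, with 5 of 8 Tardbp gRNA libraries above the highest control. The rise was small (log2 fold change 0.16, SE 0.06, 95% interval 0.03 to 0.29, edgeR adjusted p = 0.045). The call was lost when any of 12 of the 16 libraries was left out (Control libraries 1, 2, 4, 6, 7 and 8 and Tardbp gRNA libraries 1, 4, 5, 6, 7 and 8), with an adjusted p by edgeR of up to 0.16. In a fit that held the log2 RNA concentration, its fold change was -0.07 (edgeR adjusted p = 0.73).

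Rela encodes p65, the main activating subunit of the classical arm. Its levels were 98.4, 107.7 and 114.6 CPM in Control gRNA and 106.6, 115.3 and 125.4 CPM in Tardbp gRNA, and 4 Tardbp gRNA libraries exceeded every control. With a log2 fold change of 0.12 (SE 0.05, 95% interval 0.02 to 0.21) Rela lay at the threshold (edgeR adjusted p = 0.0525). It was called with DESeq2 (adjusted p = 0.046), with limma voom (adjusted p = 0.049), and by edgeR without Control library 2, 3 or 5 (adjusted p = 0.034 to 0.045). By edgeR it was also called with upper quartile normalization (log2 fold change 0.19, adjusted p = 0.0021), with total counts (0.19, adjusted p = 0.0028) and with a filter of 1 CPM in 8 libraries (0.13, adjusted p = 0.019).

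The precursor subunits did not pass the test. Nfkb1, the source of p50, had 76.2, 109.6 and 139.1 CPM in Control gRNA and 87.0, 104.8 and 117.5 CPM in Tardbp gRNA, so the range of Tardbp gRNA lay within that of the control. Its log2 fold change was -0.11 (95% interval -0.30 to 0.09, edgeR adjusted p = 0.37), and it was called lower only without Control library 1, among the libraries left out 1 at a time (-0.18, edgeR adjusted p = 0.047). Nfkb2, the source of p100 and p52, had 93.0, 131.3 and 167.5 CPM in Control gRNA and 126.1, 144.6 and 159.4 CPM in Tardbp gRNA, again within the control range. Its log2 fold change was 0.09 (95% interval -0.11 to 0.30, edgeR adjusted p = 0.48).

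**Figure D2:**
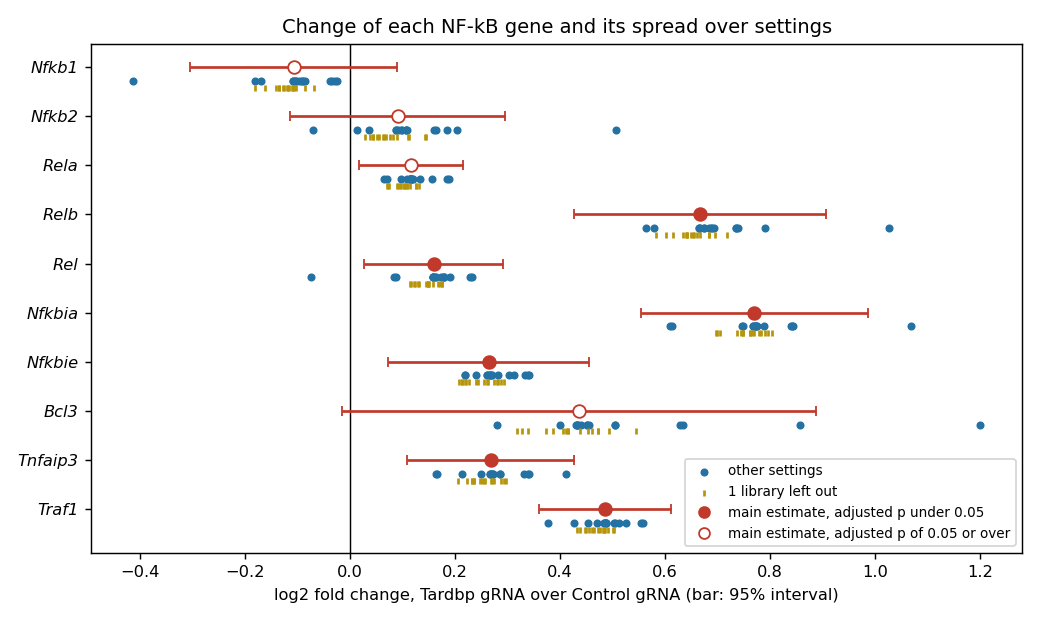
Log2 fold change of each NF-kB gene in Tardbp gRNA over Control gRNA (horizontal axis), with the main estimate and its 95% interval in red, estimates under other settings as blue points, and estimates with 1 library left out as yellow ticks. Relb, Nfkbia and Traf1 lie to the right of 0 in every setting shown, from 0.38 upward, and the points of Rel and Nfkb2 fall on both sides of 0.

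Within the inhibitor of kappa B family, Nfkbia rose most. It encodes IκBα, the inhibitor that NF-kB itself induces and that ends the response of the classical arm. Nfkbia had 104.8, 162.7 and 175.0 CPM (lowest, median and highest) in Control gRNA and 217.3, 264.8 and 323.6 CPM in Tardbp gRNA. The groups did not overlap. The mean went from 155.8 ± 23.3 to 265.6 ± 40.5 CPM, a log2 fold change of 0.77 (SE 0.10, 95% interval 0.55 to 0.99, edgeR adjusted p = 7.5e-06). Control library 3 was lowest here too, and without it the log2 fold change was 0.70.

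Nfkbie encodes IκBε, a slower inhibitor that also binds c-Rel dimers. Its levels were 32.8, 43.3 and 47.8 CPM in Control gRNA and 38.9, 51.8 and 56.9 CPM in Tardbp gRNA, with 5 Tardbp gRNA libraries above every control. It rose by a log2 fold change of 0.26 (SE 0.09, 95% interval 0.07 to 0.45, edgeR adjusted p = 0.024). The call was lost without any 1 of Control libraries 1 and 8 or Tardbp gRNA libraries 4, 5, 6 and 7 (edgeR adjusted p up to 0.083).

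Bcl3 is an atypical member of the family that sits in the nucleus on dimers of p50 or p52. Its libraries were spread widely, with 7.75, 18.7 and 29.0 CPM in Control gRNA and 17.3, 25.2 and 37.8 CPM in Tardbp gRNA, and the groups overlapped. The log2 fold change of 0.44 (SE 0.21, 95% interval -0.01 to 0.89) did not pass the test (edgeR adjusted p = 0.10), and it did pass without Control library 2 (0.54, edgeR adjusted p = 0.045).

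Both genes that act at receptor complexes rose. Traf1 encodes an adaptor that joins 4-1BB and other TNF family receptors to the NF-kB pathway and is itself a target of NF-kB. It had 164.1, 190.7 and 216.3 CPM in Control gRNA and 241.3, 264.8 and 302.0 CPM in Tardbp gRNA, and the groups did not overlap. The mean went from 190.9 ± 17.1 to 267.1 ± 22.5 CPM, a log2 fold change of 0.48 (SE 0.06, 95% interval 0.36 to 0.61, edgeR adjusted p = 3.1e-06). Tnfaip3 encodes A20, a ubiquitin-editing enzyme that shuts off signalling to the kinase complex. Its levels were 28.7, 35.5 and 39.1 CPM in Control gRNA and 36.2, 42.3 and 49.0 CPM in Tardbp gRNA, with 6 Tardbp gRNA libraries above every control. Its log2 fold change was 0.27 (SE 0.08, 95% interval 0.11 to 0.43, edgeR adjusted p = 0.0071).

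Earlier results of these data had set libraries numbered 1 to 3 apart from those numbered 4 to 8, a division that no label names. Within numbers 1 to 3, the mean of Nfkbia went from 134.5 CPM in Control gRNA to 235.2 CPM in Tardbp gRNA, and within numbers 4 to 8 from 168.5 to 283.8 CPM. The means of Relb went from 26.8 to 47.5 CPM and from 33.5 to 50.2 CPM, and those of Traf1 from 174.8 to 253.5 CPM and from 200.6 to 275.2 CPM. The rise of these 3 was thus present in both divisions, although Relb missed the threshold with 3 libraries a group (edgeR adjusted p = 0.056). The means of Tnfaip3 went from 31.8 to 43.3 CPM and from 36.7 to 41.2 CPM, and it was called in neither division on its own (edgeR adjusted p = 0.12 and 0.088).

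Markers of other cells moved with the group in part. The myeloid marker sum ranged over 27.98–54.3 CPM for Control gRNA, against 37.6–107.6 CPM for Tardbp gRNA, with 5 of 12 tested markers called higher (exact permutation test, two-sided, p = 0.0044, adjusted p = 0.015 over the 7 lists). The sum of red cell precursor markers was 0.442–17.4 and 9.02–181.5 CPM, with 4 of 4 tested markers higher (exact permutation test p = 0.0087, adjusted p = 0.020). The B cell marker sum was 143.4–456.3 and 141.1–266.2 CPM, with 2 of 12 higher (exact p = 0.26), and the dendritic cell sum 34.8–46.1 and 29.4–42.4 CPM, with 1 of 6 higher and 1 lower (exact p = 0.25). None of 4 CD4 T cell markers (4.39 to 20.7 and 6.15 to 15.6 CPM, exact p = 0.63) and none of 2 NK cell markers (0.551 to 2.999 and 0.972 to 4.03 CPM, exact p = 0.049, adjusted p = 0.086) were called. No defining marker was at 0 in all 16 libraries, but the B cell factor Pax5 was at 0 in the 8 Tardbp gRNA libraries and Cd4 averaged 0.230 and 0.220 CPM. With the log2 myeloid sum as a covariate, Nfkbia (log2 fold change 0.61), Relb (0.69) and Traf1 (0.38) were still called higher, Bcl3 was called higher (0.86), and Rel, Nfkbie and Tnfaip3 were not called. With the red cell sum as a covariate, Nfkbia (0.61), Relb (0.56), Traf1 (0.43) and Rela (0.16) were called higher and Rel, Nfkbie and Tnfaip3 were not. Both covariates were added after the data had been seen. In a fit with the log2 RNA concentration, which had been planned, Nfkbia (1.07), Relb (1.026) and Traf1 (0.51) were called higher and no other member was called. The ranges of this concentration do not overlap between the groups, so that fit cannot separate the guide from the amount of RNA.

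On a scale per transcript length (TPM, computed from the deposited transcript counts over annotated lengths and scaled to the same total in every library), levels can be set side by side between genes. Nfkbia was the most abundant in both groups, with 162.8 ± 24.1 TPM in Control gRNA and 265.5 ± 36.4 TPM in Tardbp gRNA (SD, n = 8). Traf1 followed with 141.3 ± 13.4 and 192.6 ± 14.0 TPM. The ranges of these neighbours overlapped in Control gRNA and not in Tardbp gRNA. Nfkb2 (70.5 ± 13.7 and 71.3 ± 6.66 TPM) and Rela (65.3 ± 5.12 and 67.5 ± 3.64 TPM) came next and did not differ beyond their spread in either group. Nfkb1 had 50.2 ± 10.03 and 42.8 ± 4.02 TPM. Nfkbie (25.8 ± 4.21 TPM) ranked above Relb (23.6 ± 4.82 TPM) in Control gRNA, whereas Relb (35.1 ± 3.20 TPM) ranked above Nfkbie (28.7 ± 3.35 TPM) in Tardbp gRNA, and the ranges of the pair overlapped in each group. Bcl3 (17.4 ± 5.81 and 22.6 ± 6.97 TPM), Tnfaip3 (13.2 ± 1.59 and 14.8 ± 1.58 TPM) and Rel (3.85 ± 0.38 and 4.11 ± 0.21 TPM) were lowest.

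**Figure D3:**
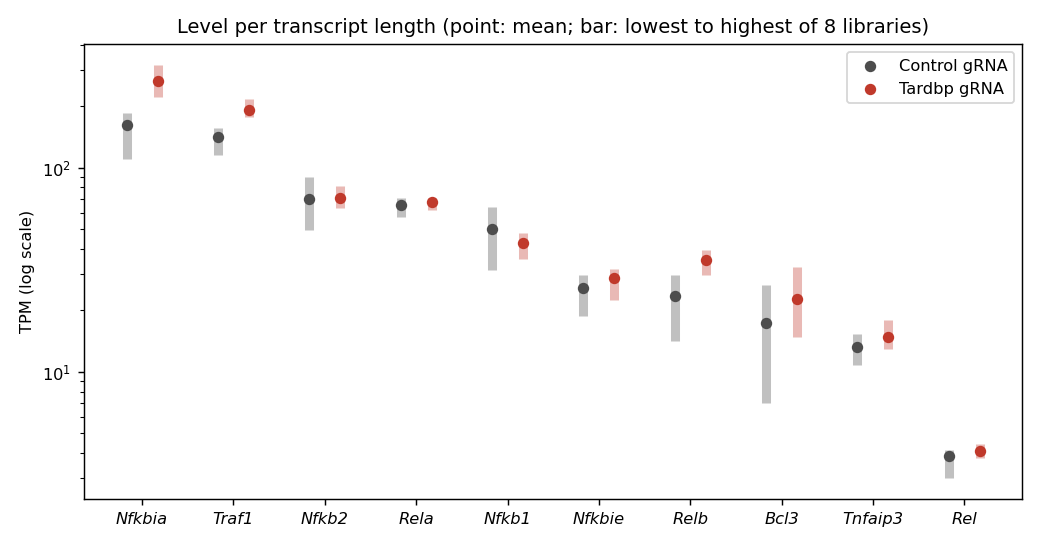
Levels of the 10 genes in TPM on a log axis, ordered by their mean in Control gRNA, with points for the means of 8 libraries and bars from the lowest to the highest library. Nfkbia and Traf1 lie highest and Rel lowest in both groups, and Relb moves above Nfkbie in Tardbp gRNA.

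The 5 subunits together amounted to 213.4 ± 19.9 TPM in Control gRNA and 220.9 ± 5.31 TPM in Tardbp gRNA, and the range of the latter (215.7 to 232.1 TPM) began within that of the former (178.2 to 231.0 TPM). Their make-up differed in Relb, which took 7.34 to 13.0% of the subunit TPM in control libraries, below its 13.6 to 17.6% in every Tardbp gRNA library. Nfkb1 took 17.7 to 27.9% and 16.5 to 21.8%. Nfkb2 and Rela kept means of 32.9% and 30.8% in Control gRNA and 32.2% and 30.6% in Tardbp gRNA. The ratio of Nfkbia to Rela in TPM was 2.52 ± 0.46 in Control gRNA and 3.95 ± 0.67 in Tardbp gRNA, and its ranges (1.56 to 2.91 and 3.24 to 5.16) did not overlap. These shares and ratios are descriptions of the levels already tested.

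Transcripts were tested as well, since TDP-43 acts on RNA processing. Of 62 annotated transcripts of the members, 39 were tested, and 9 were called higher and 1 lower in Tardbp gRNA by edgeR, against 8.5% and 8.14% of all 40897 transcripts tested. Of those with a mean of at least 1 CPM there were 28, which included all that were called. The main coding transcripts of Nfkbia (Nfkbia-201, from 158.8 ± 25.6 to 262.3 ± 40.5 CPM) and Relb (Relb-202, from 25.2 ± 5.95 to 38.8 ± 6.79 CPM) rose with their genes. For Traf1, 5 of 8 tested transcripts rose, among them the coding Traf1-202 (98.4 ± 10.8 to 134.0 ± 19.0 CPM) and the intron-retaining Traf1-206 (13.1 ± 2.55 to 19.0 ± 1.54 CPM). Nfkbie, Tnfaip3 and Rel were called as genes, but none of their tested transcripts was called. Most Nfkbie counts fell on the intron-retaining Nfkbie-202, with 53.5 ± 14.6% in Control gRNA and 64.1 ± 5.11% in Tardbp gRNA. The coding transcripts of Nfkbie went from 5.82 ± 2.60 to 9.18 ± 5.33 CPM (Nfkbie-201) and from 14.3 ± 5.98 to 8.78 ± 5.08 CPM (Nfkbie-203).

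Among the members whose gene did not pass the test, only Nfkb1 had transcripts that were called. Nfkb1-204 and Nfkb1-208, both annotated as retaining introns, rose from 2.47 ± 0.72 to 4.83 ± 1.29 CPM (edgeR adjusted p = 0.0041) and from 1.21 ± 0.50 to 2.75 ± 0.86 CPM (edgeR adjusted p = 0.0087). Nfkb1-204 took 2.16 ± 0.50% of the counts of Nfkb1 in Control gRNA and 4.67 ± 1.08% in Tardbp gRNA (limma adjusted p = 0.0034), and Nfkb1-208 took 1.06 ± 0.38% and 2.67 ± 0.81% (limma adjusted p = 0.0092). Both differences were smaller than 10 percentage points. The main transcript Nfkb1-201 held 80.1 ± 12.3% and 84.2 ± 5.35%, and another intron-retaining one, Nfkb1-202, 9.88 ± 5.82% and 5.02 ± 4.27% (limma adjusted p = 0.74 and 0.35). The transcript called lower, Nfkb1-206, rested on Control library 3 (14.4 CPM, with a control median of 0.230 CPM), and without that library its adjusted p by edgeR was 0.15. In all, 0 member transcripts had a changed share by more than 0.1 with an adjusted p under 0.05 by limma, against 0.64% of 32819 transcript shares, and 2 passed the adjusted p alone.

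The use of exon segments (nodes) had been given by the authors as Psi, with 1 value per group, so these differences have no replicate check. For a core exon, Psi is the fraction of reads that include it. Of 119 nodes of the members, 5 (4.2%) differed by more than 0.1, near the 4.7% of all 125520 nodes. The core exon among them was in Traf1, at chr2:34960821-34960887 (mm10). This exon of 67 bases is exon 2 of Traf1-202 and lies in its 5′ UTR, so it leaves the annotated protein of that transcript unchanged. Its Psi was 0.474 in Control gRNA and 0.611 in Tardbp gRNA, while the other 8 core exons of Traf1 had Psi values of 0.977 or above in both groups.

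The other 4 nodes were paired ends of last exons. For these, Psi gives the share of each end within its pair, not the presence of the bases of the node. In Nfkb1, the node that runs to the distal end of the 3′ UTR (623 bases) went from a Psi of 0.673 to 0.832 and the adjoining proximal one (238 bases, with the end of the coding sequence) from 0.328 to 0.168. The proximal end is the annotated end of Nfkb1-206. By transcript counts, Nfkb1-206 held 2.57 ± 4.96% of the gene in Control gRNA and 0.17 ± 0.18% in Tardbp gRNA (limma adjusted p = 0.54). These shares lay below the proximal Psi, and the control level was highest in Control library 3 (14.4 CPM, control median 0.230 CPM). In Tnfaip3, a distal node of only 3 bases went from 0.211 to 0.392 and its proximal partner from 0.789 to 0.608. Those 3 bases are the difference between the annotated ends of Tnfaip3-201 and Tnfaip3-202. By transcript counts, Tnfaip3-201 held 73.0 ± 14.2% of the gene in Control gRNA and 65.1 ± 16.6% in Tardbp gRNA. Tnfaip3-202 held 20.1 ± 12.9% and 21.4 ± 14.5% (limma adjusted p = 0.68 and 0.96 for the 2 transcripts in turn). The rise of the distal node was thus not seen in the share of Tnfaip3-201. All nodes of Nfkb2, Rela, Relb, Rel, Nfkbia, Nfkbie and Bcl3 differed by at most 0.035.

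**Figure D4:**
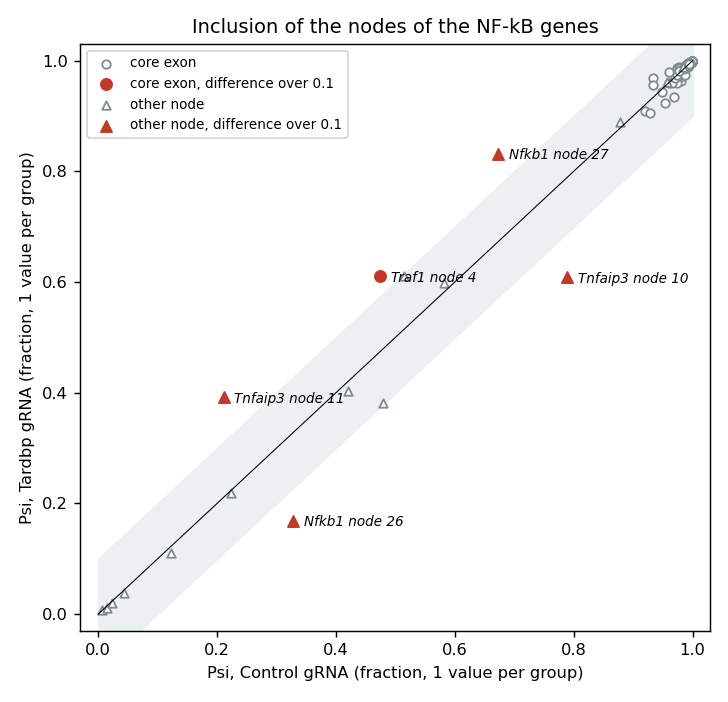
Psi of each of the 119 nodes of the NF-kB genes in Control gRNA (horizontal axis) and Tardbp gRNA (vertical axis), each a single value per group, with core exons as circles and other nodes as triangles. The grey band marks differences of up to 0.1, and 5 nodes in Nfkb1, Tnfaip3 and Traf1 lie outside it.

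Correlations between members were computed within each group. Over the 45 pairs of members, the median Pearson r of log2 CPM was 0.56 in the 8 Control gRNA libraries and 0.14 in the 8 Tardbp gRNA libraries, and the difference between the groups was not tested. Control library 3 was the lowest control for Nfkb2, Relb, Nfkbia, Nfkbie, Bcl3 and Tnfaip3. The lowest was Control library 1 for Nfkb1, Rel and Traf1 and Control library 8 for Rela. The part of such single libraries in the control median was not tested. By an exact permutation test of Pearson's r, with adjustment over the 45 pairs of a group, 2 pairs passed in each group, and by Spearman's rho 0 passed after adjustment. In Control gRNA these were Nfkb2 with Nfkbia (r = 0.87, exact p = 0.00045, adjusted p = 0.020; rho = 0.91, exact p = 0.0046, adjusted p = 0.11) and Nfkbie with Tnfaip3 (r = 0.94, exact p = 0.0018, adjusted p = 0.041; rho = 0.86, exact p = 0.011, adjusted p = 0.12). In Tardbp gRNA they were Nfkbia with Traf1 (r = 0.94, exact p = 0.0021, adjusted p = 0.049; rho = 0.79, exact p = 0.028, adjusted p = 0.21) and Nfkbia with Nfkbie (r = 0.88, exact p = 0.0022, adjusted p = 0.049; rho = 0.95, exact p = 0.0011, adjusted p = 0.051). Without the 2 libraries farthest from the median of the first gene, r was 0.75, 0.70, 0.93 and 0.88 for these pairs in turn. Among Control gRNA pairs that did not pass, r fell in some, as for Relb with Nfkbia (from 0.86 to -0.07). It held in others, as for Nfkbia with Nfkbie (0.72 before and after). Over the 10 members, none had a Pearson's r with the log2 RNA concentration that passed within a group after adjustment, and 1 passed by Spearman's rho. This was Rel in Control gRNA (r = -0.76, exact p = 0.025, adjusted p = 0.25; rho = -0.90, exact p = 0.0046, adjusted p = 0.046), and without the 2 farthest libraries r was -0.90.

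Genes whose log2 CPM followed a member most closely over the 16 libraries, after the group mean was taken off, are given as a description among the 8975 genes whose log2 CPM averaged 3 or more. Nfkbia was most like Cfap36 (Pearson r = 0.89), the activation marker Cd83 (0.88) and the AP-1 subunit gene Junb (0.86). Relb was most like the calcium channel gene Orai1 (0.83), Hist1h2ac (0.83) and 2210016F16Rik (0.82). Traf1 was most like Plxdc2 (0.91), Tmem35b (0.90) and Inpp4b (0.89), and Nfkbie was most like Tnfsf11 (0.84), which encodes RANKL, Ajuba (0.84) and Traf1 (0.83). Nfkb1 was most like Icosl (0.92), Gata3 (0.91) and Trim26 (0.90), and Rel most like Pimreg (0.92), Slc25a24 (0.90) and Gata3 (0.89). For Nfkb2 they were Dusp4 (0.85), Bhlhe40 (0.82) and Gm14269 (0.82), for Rela Cers2 (0.80), Ptpn22 (0.79) and Rnf4 (0.79), for Bcl3 Agfg1 (0.91), Fem1a (0.90) and Ier5 (0.89), and for Tnfaip3 Gne (0.78), Tgfbrap1 (0.73) and Map3k11 (0.73). All these points share the libraries and their scaling.

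The wider pathway was set beside the members with 6 lists of 86 genes in all, of which 85 were tested. Of these, 31 were called higher and 15 lower, and the median log2 fold change was 0.12. In all 54.1% of these genes were called in either direction, against 46.7% of all genes tested (23.5% higher and 23.3% lower). With upper quartile normalization or total counts, which also raised the median of all genes to 0.12, 37 were called higher and 10 lower. The shares called in 4 upstream lists (41.7% of adaptors and ligases, 41.7% of kinases, 4 of 8 genes of the antigen receptor branch and 42.9% of other inhibitors and deubiquitinases) lay near that of all genes. Among 12 adaptors and ligases below TNF receptors 3 rose and 2 fell. Tradd, the adaptor of TNF receptor 1, rose from 79.2 ± 6.22 to 94.7 ± 5.58 CPM, and Traf6, a ubiquitin ligase, fell from 37.5 ± 5.20 to 27.0 ± 3.36 CPM (edgeR adjusted p = 0.0005 and 0.00033).

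Among 12 kinases 4 rose and 1 fell. Map3k8, the kinase TPL2, rose from 17.6 ± 1.97 to 21.8 ± 1.69 CPM, and Tbk1, a kinase related to IKK, fell from 101.0 ± 8.68 to 84.2 ± 5.91 CPM (edgeR adjusted p = 0.0022 and 0.00088). Among 8 genes of the antigen receptor branch 2 rose and 2 fell. Bcl10, a core part of the CARMA1 complex, rose from 76.4 ± 3.26 to 86.7 ± 8.28 CPM, and the kinase gene Pdpk1 fell from 57.9 ± 2.56 to 46.4 ± 5.23 CPM (edgeR adjusted p = 0.010 and 0.00042).

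Among 14 other inhibitors and deubiquitinases 4 rose and 2 fell. Nfkbid, a nuclear member of the inhibitor of kappa B family, rose from 21.3 ± 3.33 to 29.9 ± 3.80 CPM, and Otud7b, a deubiquitinase, fell from 25.3 ± 2.75 to 20.3 ± 3.13 CPM (edgeR adjusted p = 0.00055 and 0.011). Among 9 tested TNF receptor family members 5 rose and 1 fell. Tnfrsf14 rose from 0.793 ± 0.23 to 1.34 ± 0.28 CPM, a low level, and Tnfrsf1b, TNF receptor 2, fell from 216.6 ± 21.2 to 169.4 ± 15.9 CPM (edgeR adjusted p = 0.0032 and 0.00021). The receptors of the antibodies, taken for that reason, were Tnfrsf9 (4-1BB), which rose from 150.7 ± 18.4 to 188.3 ± 15.8 CPM, and Tnfrsf4 (OX40), with 35.9 ± 14.5 and 27.99 ± 6.55 CPM (edgeR adjusted p = 0.001 and 0.17).

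Of 30 textbook targets of NF-kB, 13 rose, 7 fell and 10 did not pass the test, with a median log2 fold change of 0.23. The share that fell equalled that of all genes tested (23.3%), and 43.3% rose, against 23.5% of all genes. At one end was the chemokine gene Ccl5, with 6.75 ± 2.18 CPM in Control gRNA and 73.8 ± 14.6 CPM in Tardbp gRNA, a log2 fold change of 3.45 (edgeR adjusted p = 2.2e-09) with no overlap (3.53 to 10.3 and 55.2 to 100.9 CPM). At the other was Ebi3, a cytokine subunit gene, with 4.19 ± 2.20 and 1.605 ± 0.56 CPM (log2 fold change -1.39, edgeR adjusted p = 0.0021).

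**Figure D5:**
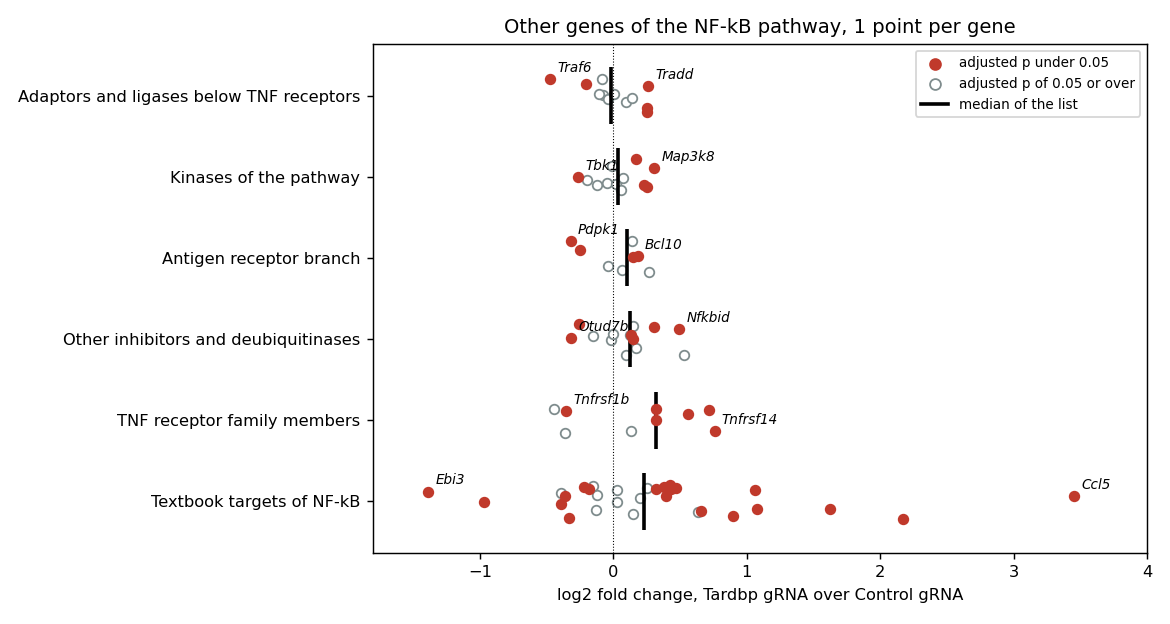
Log2 fold change in Tardbp gRNA over Control gRNA (horizontal axis) of the 85 tested genes in 6 pathway lists, with 1 point per gene, filled where the edgeR adjusted p was under 0.05, and black bars for the median of each list. The named genes are the called ones at either end of each list, from Ebi3 at -1.39 to Ccl5 at 3.45.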

How the data were processed

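The 16 libraries of sorted CD8+ T cells had been prepared with SMART-Seq v4 and Nextera XT, which do not mark strand. Alignment was to mm10, and the submitters' processing notes name HISAT2 2.1.0 and StringTie 2.1.0, with which the authors made the deposited estimated counts per gene and transcript, whole numbers with no normalization. Deposited counts of read pairs gave the sequencing depth. Table lines without a gene name, at 0.0836 to 0.132% of the total, were left out. The authors ran Whippet, and the deposited Psi is a fraction per node and group. Their difference and probability columns were not used, nor were 10 columns of each count table that match no sample here. Groups and numbers came from the labels. Names and coordinates came from GENCODE M21 (GRCm38).

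Genes and transcripts were tested with edgeR 4.0.16 in R 4.3.3 by the quasi-likelihood test (TMM, filterByExpr by group with a minimum count of 10 and a minimum total of 15, all 16 libraries, no covariate), with calls at an adjusted p (Benjamini-Hochberg, over all features) under 0.05. Transcript shares were tested with limma 3.58.1 (difference over 0.1). DESeq2 1.42.0, other scalings and filters, covariates, subsets and 1 library left out were alternatives. Intervals of fold changes came from the SE and the t distribution. Single values were compared by exact permutation tests in Python with SciPy. The edgeR test of genes and the limma test of shares were tested on simulated data. Named genes were the members, Tardbp, the called genes at either end of each list, and the 3 genes most like each member. The members, lists, tests and the division by number were chosen with earlier results of these data known.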

Additional observations from a re-analysis of the deposited data

How the results depend on the processing

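Of the 10 NF-kB genes, Nfkbia and Traf1 kept their direction and their call under the other tools, scalings, filters, subsets and covariates and with any 1 of the 16 libraries left out. Relb did so except with libraries numbered 1 to 3 alone. With those 6 libraries, 1696 genes, 2 members higher, 10 pathway genes higher and 2 lower were called, against 7783, 6, 31 and 15 over all libraries, from fewer samples. In a fit with the log2 RNA concentration, whose ranges do not overlap between groups, 2697 genes, 3 members higher, 11 pathway genes higher and 1 lower were called. Rel turned to a log2 fold change of -0.075 there, and Nfkb2 turned to -0.071 with the red cell precursor sum as a covariate. The cause was not tested in either case. At an adjusted p under 0.01, 9 pathway genes were lower. With 1 library left out, the genes called ranged from 7265 to 7734, members higher from 4 to 7, members lower from 0 to 1, and pathway genes from 26 to 31 higher and 12 to 18 lower. No member node (0 of 119) differed in Psi by more than 0.2, and 1 core exon differed by more than 0.1. With a replicate block 7645 genes, 6 members higher and 0 lower, 31 and 14 pathway genes, 8 member transcripts and 0 changed shares were called, and no member's call changed. Libraries of the same number correlated at -0.005 to 0.16, and the median with libraries of other numbers was -0.046 to 0.002. The correlation with the same number was the higher of these for every number except 8. Libraries were best matched to their own number in 2 of 8 cases, and the numbers were not taken as pairs in the main test. The lowest estimated count of a member in a library was 632.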
